A study of Mus musculus with 4 samples.

Results

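Runx3-bound regions were mapped at 9 genes of cytokine signaling in splenic CD4+ dendritic cells (DC). The genes were the STAT transcription factors Stat2, Stat3, Stat4, Stat5a, Stat5b and Stat6 and the feedback inhibitors Socs1, Socs3 and Cish. A peak was assigned to a gene when its centre lay in the gene body or within 50 kb of it, in the GENCODE M1 annotation on mm9. The windows of the 9 genes, on 5 chromosomes, held 33 of the 15121 peaks in the deposited list, and the annotation held 22367 protein-coding genes in all.

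Chromatin immunoprecipitation followed by sequencing (ChIP-seq) recovers the DNA to which a protein is crosslinked. It was done with an in-house polyclonal anti-Runx3 antibody in 2 samples, and whole cell extract of fragmented chromatin served as control (input) in 2 samples. The cells were sorted CD11chiMHCII+CD4+ DC pooled from about 15 mice without treatment or genetic change in the labels, which give the strain as C57BL/6 except for the second input, labelled C57BL/7. The animals' age was not given in the sources used here, expression values were not used here, so the sorted cells were not checked against marker genes, and no Runx3-deficient chromatin was analysed here. The authors called peaks with MACS2 in 1 comparison of the pooled Runx3 samples with the pooled inputs. No peak therefore has a value per replicate, no spread between replicates can be given, and no test was made. All shares and medians below describe that single list. The score is the number that MACS2 wrote for each peak, with no unit given by the authors. It was used only to order peaks within the list, where it ran from 1.33 to 309.3 with a median of 12.1.

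STAT proteins carry signals from cytokine receptors to the nucleus. A cytokine bound to its receptor activates Janus kinases (JAK), which phosphorylate the receptor and then the STAT, and phosphorylated STATs form dimers that bind DNA at a palindrome with a spacer of 3 or 4 bases. SOCS proteins and Cish are made in response to the same signals and switch them off, by blocking the kinase or the receptor or by sending them for degradation. In DC, Stat3 acts downstream of Flt3 ligand and IL-10, Stat5 downstream of GM-CSF, and Stat2 downstream of type I interferons. RUNX proteins, Runx3 among them, bind the hexamer TGTGGT and its variant TGCGGT.

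To show the DNA under the calls, the central 200 bases are printed for 1 peak of each gene, the one with the highest score among those centred in its body or nearer to its transcription start site (TSS) than to that of any other protein-coding gene. Letters were read from NCBIM37, the assembly of mm9, 5′ to 3′ on the strand of the gene, and capitals mark each TGTGGT or TGCGGT, on either strand, and each TTCNNNGAA, the STAT palindrome with 3 spacer bases. On the opposite strand TGTGGT reads ACCACA. The peaks of the 6 STAT genes were the following.
Stat2, chr10:127707330-127707529, + strand: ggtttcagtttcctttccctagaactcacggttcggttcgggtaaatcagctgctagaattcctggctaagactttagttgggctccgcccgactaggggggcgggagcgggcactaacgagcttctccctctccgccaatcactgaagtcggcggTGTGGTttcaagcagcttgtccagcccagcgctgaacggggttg
Stat3, chr11:100758939-100759138, - strand: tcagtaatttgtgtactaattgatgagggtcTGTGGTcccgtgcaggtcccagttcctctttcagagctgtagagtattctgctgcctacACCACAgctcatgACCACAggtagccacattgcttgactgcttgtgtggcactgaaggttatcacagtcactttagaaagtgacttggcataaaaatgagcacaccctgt
Stat4, chr1:52079130-52079329, + strand: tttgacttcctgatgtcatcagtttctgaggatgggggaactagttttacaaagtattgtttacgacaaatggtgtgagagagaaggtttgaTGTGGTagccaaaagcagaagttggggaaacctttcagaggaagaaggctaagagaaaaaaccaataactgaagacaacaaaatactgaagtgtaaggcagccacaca
Stat5a, chr11:100720226-100720425, + strand: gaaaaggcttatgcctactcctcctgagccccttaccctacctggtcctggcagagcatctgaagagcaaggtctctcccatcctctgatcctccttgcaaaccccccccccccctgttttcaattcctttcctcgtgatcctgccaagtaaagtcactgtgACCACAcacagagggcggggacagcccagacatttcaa
Stat5b, chr11:100675873-100676072, - strand: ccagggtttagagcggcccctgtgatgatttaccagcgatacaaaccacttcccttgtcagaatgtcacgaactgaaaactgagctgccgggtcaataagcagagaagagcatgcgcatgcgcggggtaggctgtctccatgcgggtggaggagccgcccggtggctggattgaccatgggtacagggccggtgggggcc
Stat6, chr10:127069034-127069233, + strand: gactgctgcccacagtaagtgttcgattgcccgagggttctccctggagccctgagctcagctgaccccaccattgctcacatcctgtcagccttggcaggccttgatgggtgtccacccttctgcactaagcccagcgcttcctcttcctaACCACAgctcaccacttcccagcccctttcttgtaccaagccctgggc

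The stretch from Stat3 held 3 RUNX hexamers, those from Stat2, Stat4, Stat5a and Stat6 held 1 each, and that from Stat5b held none. The corresponding stretches from the inhibitor genes, chosen by the same rule, are given next, and none of them held a RUNX hexamer of either form.
Socs1, chr16:10785853-10786052, - strand: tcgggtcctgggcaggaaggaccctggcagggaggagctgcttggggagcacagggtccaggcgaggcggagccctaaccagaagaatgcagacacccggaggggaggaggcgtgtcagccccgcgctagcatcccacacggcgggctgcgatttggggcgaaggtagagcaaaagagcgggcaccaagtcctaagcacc
Socs3, chr11:117821401-117821600, - strand: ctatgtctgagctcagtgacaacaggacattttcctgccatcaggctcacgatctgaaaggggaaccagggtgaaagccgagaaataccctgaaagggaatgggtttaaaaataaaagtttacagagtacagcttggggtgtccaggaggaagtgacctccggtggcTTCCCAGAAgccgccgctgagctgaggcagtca
Cish, chr9:107215383-107215582, + strand: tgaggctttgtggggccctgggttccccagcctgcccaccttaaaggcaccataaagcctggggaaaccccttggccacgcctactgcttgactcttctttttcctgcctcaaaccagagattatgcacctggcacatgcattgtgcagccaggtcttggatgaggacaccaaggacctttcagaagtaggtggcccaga

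The Socs3 stretch held 1 STAT palindrome, with the letters TTCCCAGAA, and those of Socs1 and Cish held none. Outside these central 200 bases the same peaks held further matches, which are given with each gene below.

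All 9 genes had a peak, where 62.6% of protein-coding genes had at least 1. Stat3 and Stat5b had 6 peaks each, Stat2 and Socs3 had 5, Stat5a, Stat6 and Socs1 had 4, and Stat4 and Cish had 3. The median was 4 peaks per window, against 1 over all protein-coding genes. Each of the 9 genes thus had 3 or more peaks, a number reached by 29.7% of protein-coding genes. The 9 genes were chosen with earlier results of these data known, so these comparisons describe the list and are no test of it. The windows were of similar size, with a median of 122 kb for the 9 genes and 115 kb for all. Density ran from 1.36 peaks per 100 kb at Stat4, the longest gene at 120 kb, to 4.81 at Socs3, with a median of 3.53 against 0.880. As many peaks as Stat3 and Stat5b, or more, lay at 7.31% of protein-coding genes, and the largest number at any gene was 64. These counts were not independent, because 40 pairs of a peak and a gene came from 33 peaks. Of the 33 peaks, 29 lay in 1 window, 1 lay in 2 and 3 lay in 3.

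**Figure D1:**
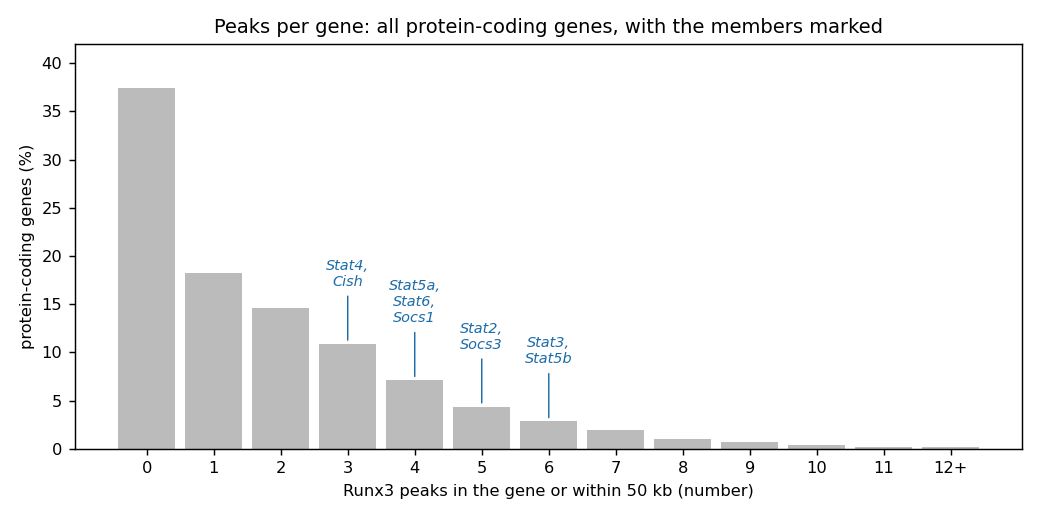
Share of the 22367 protein-coding genes (vertical axis, %) by the number of Runx3 peaks centred in the gene or within 50 kb (horizontal axis), with the 9 genes marked above their bars. No peak lay at 37.4% of genes, and the 9 genes stood at 3 to 6 peaks.

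The position of the peaks relative to the genes varied. Of the 33 peaks, 8 were centred in the body of 1 of the 9 genes, 8 in the body of another protein-coding gene and 17 between genes. A peak in the body was found at 5 of the 9 genes, where 23.2% of protein-coding genes had one. These 5 were Stat2, Stat3, Stat4, Stat5b and Stat6, whereas the bodies of Stat5a, Socs1, Socs3 and Cish held none. Socs1, Socs3 and Cish are short genes of 1.73, 3.97 and 6.76 kb. A peak within 1 kb of an own TSS was found at 4 genes, Stat2, Stat3, Stat5a and Socs1, where 24.9% of protein-coding genes had one. The windows also held other genes, up to 8 of them at Stat2 and Socs1. For 18 peaks the nearest protein-coding TSS was that of 1 of the 9 genes, and for 15 it was that of a neighbor. Which gene a peak acts on cannot be read from a peak list.

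**Figure D2:**
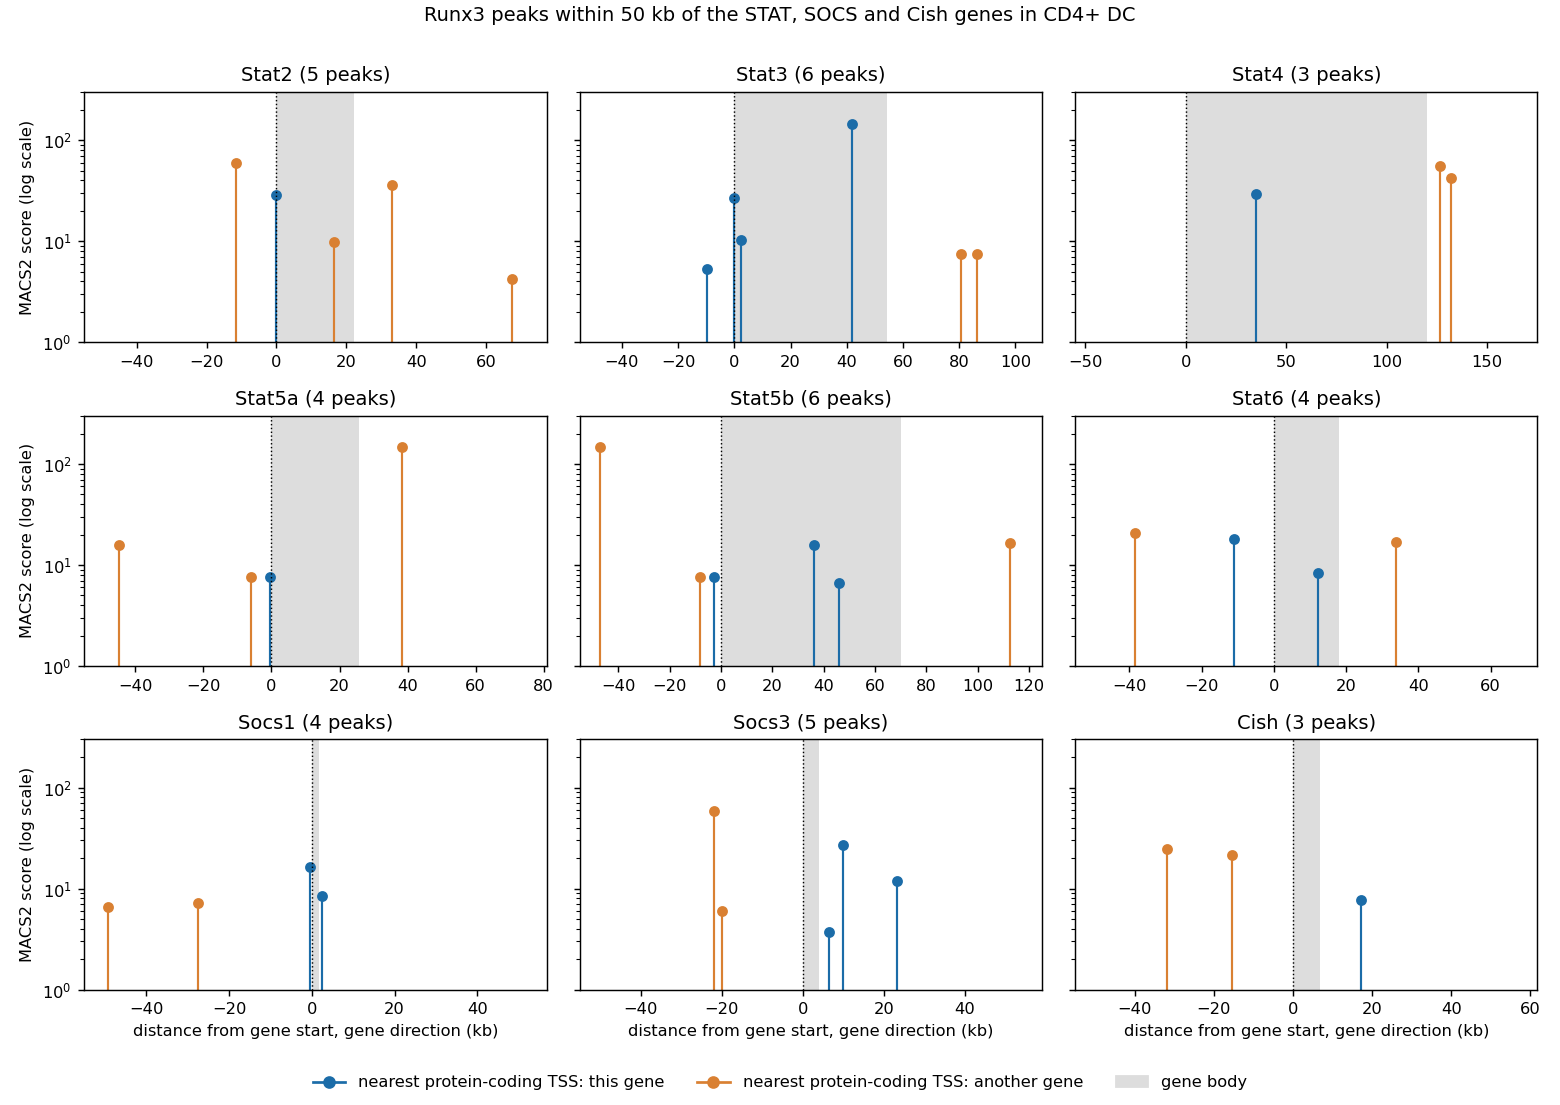
Each panel shows 1 gene, with the distance of each peak centre from the gene start in the direction of transcription (horizontal axis, kb) and its MACS2 score (vertical axis, log scale). The grey area is the gene body and the dotted line its start. Blue peaks lay nearest to a TSS of the gene itself and orange peaks nearest to another protein-coding gene. The peak inside Stat3, with a score of 146.47, is also drawn at Stat5a and Stat5b, whose windows contain it.

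Stat3 carried the strongest peak of the set. Stat3, which transmits IL-6 family, IL-10 and Flt3 ligand signals, lies on the minus strand at chr11:100746412-100800854. Its peak at chr11:100758524-100759553 was 1030 bp wide and had a score of 146.47, which ranked 37 of 15121. A peak of this score or higher lay in the windows of 0.389% of protein-coding genes. The peak was centred 41816 bp downstream of the gene start and 12626 bp before the gene end, in intron 14 of the longest transcript, which has 24 exons. A short retained-intron transcript starts 804 bp from the centre, so that the peak counted as within 1 kb of an annotated Stat3 TSS although it was far from the main promoter. It held 5 TGTGGT hexamers, the nearest of them 6 bp from the peak centre, and no TTCNNNGAA.

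The other peaks of Stat3 were weaker. A peak at chr11:100800482-100801172, with a score of 26.65, was centred 27 bp from the outermost start of the gene. It lacked TGTGGT, held 2 copies of TGACGT and had a GC content of 64.4%, against 48.4% in the intronic peak. The promoter peak and the intronic peak of the same gene thus differed in score, position and letters. Another peak, in intron 1 at chr11:100798121-100798523, had a score of 10.29 and 1 TGTGGT. A peak 9541 bp upstream of the gene had a score of 5.36 and no TGTGGT, and both remaining peaks, each with a score of 7.53, lay beyond the end of Stat3 and nearer to the start of Stat5a or Stat5b.

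Stat5a and Stat5b, which transmit GM-CSF, IL-2 and growth hormone signals through closely related proteins, lie beside Stat3. Stat5a, at chr11:100720665-100746483 on the plus strand, overlaps the end of Stat3 by 72 bp, and its start lies 8627 bp from that of Stat5b, at chr11:100642045-100712038 on the minus strand. The windows of the 3 genes together held 9 distinct peaks. Each start had a weak peak nearest to it, but only that of Stat5a lay within 1 kb. The peak of Stat5a at chr11:100720127-100720523, with a score of 7.53, was centred 340 bp upstream of the start and held 1 TGTGGT. The peak next to Stat5b at chr11:100714419-100714789, also with a score of 7.53, was centred 2566 bp upstream of its start and held 3 TGTGGT. Both scores were below the list median of 12.1. The body of Stat5b held a peak with a score of 15.73 in intron 1 of its longest transcript, with 1 TGTGGT 184 bp from the centre, outside the printed stretch. A peak with a score of 6.57 lay in intron 3 and held 2 TGTGGT. The strongest peak nearest to another gene in these windows, with a score of 16.44, lay 51 bp upstream of the TSS of Rab5c, which encodes an endosomal GTPase. None of the 9 peaks held TTCNNNGAA.

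Stat2, the partner of the type I interferon response, lies at chr10:127707629-127729905 on the plus strand, and had a peak at its promoter. The peak at chr10:127707153-127707705 was centred 200 bp upstream of the start and had a score of 28.55. It held 1 TGTGGT, 60 bp from its centre, and 1 STAT palindrome with 4 spacer bases. The highest score in the window, 59.12, belonged to a peak 11454 bp upstream at chr10:127695942-127696409, which lay nearer to the TSS of Apon. That peak ranked 699 of 15121 and held 2 TGTGGT. The remaining peaks had scores of 9.84 in intron 22 of Stat2, 36.14 at the TSS of Pan2, which encodes a subunit of an mRNA deadenylase, and 4.23 at the first exon of Cs, which encodes citrate synthase. The intron 22 peak held 1 TTCNNNGAA, 2 bp from its centre, besides 1 TGTGGT, and its nearest protein-coding TSS was that of Il23a, a subunit of the cytokine IL-23, at 10906 bp.

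Stat6, which transmits IL-4 and IL-13 signals, lies at chr10:127080042-127098013 on the plus strand, and its peaks were of middle rank. Their scores were 20.62, 18.13, 17.02 and 8.31, and 34.5% of protein-coding genes had a window peak as strong as the highest of them. The peak at chr10:127068946-127069321, with a score of 18.13, was centred 10909 bp upstream of the start and held 2 TGTGGT. The only peak in the body, at chr10:127092185-127092545, had a score of 8.31, lay in exon 13 and held 2 TGTGGT. No peak was centred within 1 kb of a Stat6 TSS. The other peaks lay in intron 6 of Lrp1, which encodes an endocytic receptor, and 165 bp upstream of the TSS of Tmem194.

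Stat4, which transmits IL-12 signals, is the longest of the genes, at chr1:52043992-52164032 on the plus strand, and had only 3 peaks. The peak in its body, at chr1:52079018-52079441, had a score of 29.56 and ranked 2655. It lay in intron 3, 35237 bp from the gene start and 14141 bp from an inner TSS. It held 2 TGTGGT, the nearer one 5 bp from the centre, and 1 STAT palindrome with 4 spacer bases. Both other peaks lay 6700 and 12104 bp beyond the end of the gene, had scores of 55.33 and 42.13 and held no TGTGGT. All 3 scores were above the upper quartile of the list, 23.2, but both stronger peaks were nearer to the TSS of another protein-coding gene, and the second of them lay 146 bp upstream of it. Only the intronic peak was nearest to a Stat4 TSS.

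Socs1, which blocks JAK activity after interferon signals, lies at chr16:10783901-10785629 on the minus strand and had a broad promoter peak. This peak, at chr16:10785440-10786465, was 1026 bp wide with a score of 16.28, was centred 323 bp upstream of the start and had a GC content of 65.8%. It held no TGTGGT but 1 TGCGGT, 1 TTCNNNGAA and 3 copies of the STAT palindrome with 4 spacer bases, TTC and GAA set 4 bases apart. A second peak 616 bp beyond the gene end had a score of 8.49 and 2 TGTGGT. The other peaks of the window lay between genes, 232 bp from the TSS of Gm11172 and 162 bp upstream of that of A630055G03Rik, and had scores of 7.2 and 6.57.

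Socs3, which restrains IL-6 family and G-CSF signals, lies at chr11:117827393-117831361 on the minus strand and had no peak within 1 kb of a TSS. Its nearest peak to a TSS, at 5521 bp, had a score of 3.69, the lowest among the 33. The strongest of the 3 peaks closer to Socs3 than to any other protein-coding TSS, at chr11:117821163-117821837 with a score of 26.73, lay 5893 bp beyond the gene end and held 2 TGTGGT and 2 TTCNNNGAA. Another downstream peak, 19331 bp beyond the gene end, had a score of 11.96. On the upstream side, peaks with scores of 58.02 and 5.96 lay in intron 1 of Pgs1, which encodes an enzyme of cardiolipin synthesis, at 21876 and 19996 bp from the Socs3 start. Of the 5 peaks, 3 held TTCNNNGAA and 3 held TGTGGT.

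Cish, the inhibitor induced by Stat5, lies at chr9:107198357-107205115 on the plus strand and had no peak in the gene or within 10 kb of it. The peaks of its window with scores of 24.94 and 21.46 lay in Mapkapk3, which encodes a stress-activated kinase, and the second of them was 252 bp from a TSS of that gene. The 1 peak closer to a Cish TSS than to that of any other protein-coding gene, at chr9:107215211-107215754, lay 10367 bp beyond the gene end, had a score of 7.68 and held no TGTGGT but 1 TTCNNNGAA. The promoter peaks of the 9 genes were thus those of Stat2, Stat3, Stat5a and Socs1, with scores from 7.53 to 28.55.

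**Figure D3:**
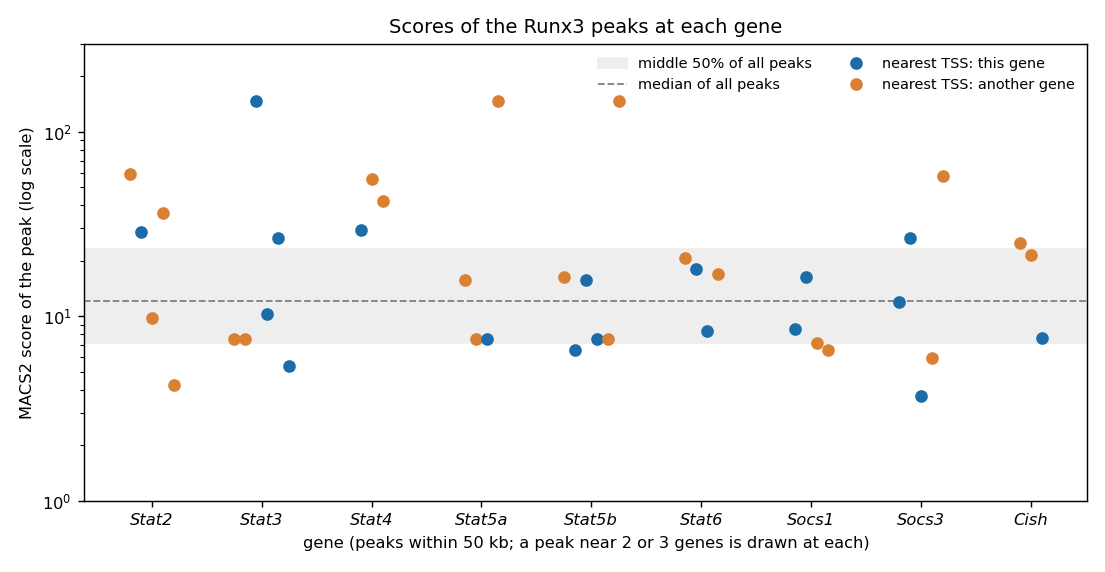
MACS2 score (vertical axis, log scale) of each peak assigned to each of the 9 genes, with 1 point per peak, blue where the nearest protein-coding TSS is that of the gene and orange where it is that of another gene. The dashed line is the median of all 15121 peaks, 12.1, and the grey band their middle 50%. The scores of Stat4 lie above the band, those of Stat6 inside it, and the highest point, at 146.47, appears at Stat3, Stat5a and Stat5b.

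Across the 33 peaks the median score was 16.3, with a binomial 95% interval from 8.31 to 24.94 that contained the list median of 12.1. Scores at or above the upper quartile of the list were found for 11 peaks, or 33.3% (Wilson 95% interval 19.8 to 50.4), where 25.4% of all peaks reached it. Intervals cover counting error only, and the share of all peaks lay inside. The windows of the 6 STAT genes held 21 peaks with a median score of 17.0, and those of Socs1, Socs3 and Cish held 12 peaks with a median of 10.2. Peaks nearest to a TSS of the 9 genes had a median score of 11.1, and those nearest to a neighbor a median of 20.6. Peaks near the 50 kb limit were included or left out without regard to score. Measured for each gene on its own, the last peaks inside it lay 45076 bp from Stat2, 47000 bp from Stat5b and 49361 bp from Socs1. Their scores were 4.23, 146.47 and 6.57. The first outside a gene's own window lay 51839 bp from Stat5a, 52105 bp from Stat2 and 52526 bp from Stat4. Their scores were 10.29, 11.96 and 58.02. The peaks measured from Stat5b and Stat5a both lay in the body of Stat3, so they were among the 33 whatever the limit.

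Distance to promoters was also described. A protein-coding TSS of any gene lay within 1 kb of 39.4% of the 33 peaks and of 36.3% of all peaks. Within 10 kb the shares were 78.8% (62.2 to 89.3) and 60.7%. The 33 peaks were selected for lying in or within 50 kb of protein-coding genes, whereas the full list was not. These shares are therefore partly set by that rule, and the difference was not tested. The peaks had a median width of 442 bp, against 406 bp, and width and score rose together (Spearman rho = 0.729 across these peaks and 0.712 across all, which are not independent replicates).

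The letters of RUNX and STAT sites were counted in the peaks. Both strands of each whole peak were searched, and matches of different motifs were allowed to overlap. TGTGGT was found in 21 of 33 peaks, or 63.6% (46.6 to 77.8), and in 54.0% of all peaks. In windows of the same width 10 kb downstream, the shares were 22.6% of 31 windows and 30.9%. With the variant TGCGGT included, 25 of the 33 peaks and 66.5% of all peaks held a RUNX hexamer. The study reports the RUNX motif in a larger share of its bound regions. It searched for motifs de novo, so its measure may differ from the exact letters counted here. At least 2 copies of TGTGGT were present in 13 peaks, or 39.4%, against 18.5% of all. At least 3 copies were present in 3 peaks, or 9.09%, against 5.03% of all. These 3 were the peaks in Stat3, upstream of Stat5b and in Mapkapk3 near Cish. The median score was 18.1 for the 21 peaks with TGTGGT and 14.1 for the 12 without it, beside 14.2 and 10.5 in the whole list.

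TTCNNNGAA was found in 9 of the 33 peaks, or 27.3% (15.1 to 44.2), and in 12.5% of all peaks. In the downstream windows the shares were 16.1% and 12.4%. The 9 peaks lay in the windows of Stat2, Stat4, Stat6, Socs1, Socs3 and Cish. Several of them lay nearest to the TSS of a neighbor, among them all those in the windows of Stat2, Stat4 and Stat6. For peaks nearest to a TSS of the 9 genes, the share with TTCNNNGAA was 22.2%. TGTGGT was present as well in 5 of the 9 peaks. Both motifs were thus in 15.2% of the 33 peaks, against 7.54% of all peaks. The palindrome with 4 spacer bases, the spacing that Stat6 prefers, was found in 11 peaks, or 33.3% (19.8 to 50.4), against 10.6% of all peaks, and in 6.45% and 11.3% of the downstream windows. In a count chosen after seeing the data, 18 of the 33 peaks, or 54.5% (38.0 to 70.2), held either spacing, against 21.6% of all peaks, whereas the downstream windows gave 19.4% and 22.3%. For both spacings the share of all peaks lay below the interval of the 33 peaks. Several peaks with the spacing of 4 bases also lay nearest to the TSS of a neighbor, among them those at Pan2, Pgs1 and Mapkapk3. The shares thus describe the windows and not the 9 genes alone. In the 200 bp around the centre, either spacing was found in 30.3% (17.4 to 47.3) against 10.4%. The part of peak width, with a median of 442 bp against 406 bp, was not tested. The peaks are few, they lie at 9 genes of which 3 are adjacent, and the difference was not tested. A match is a run of letters and does not show that a STAT protein was bound.

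**Figure D4:**
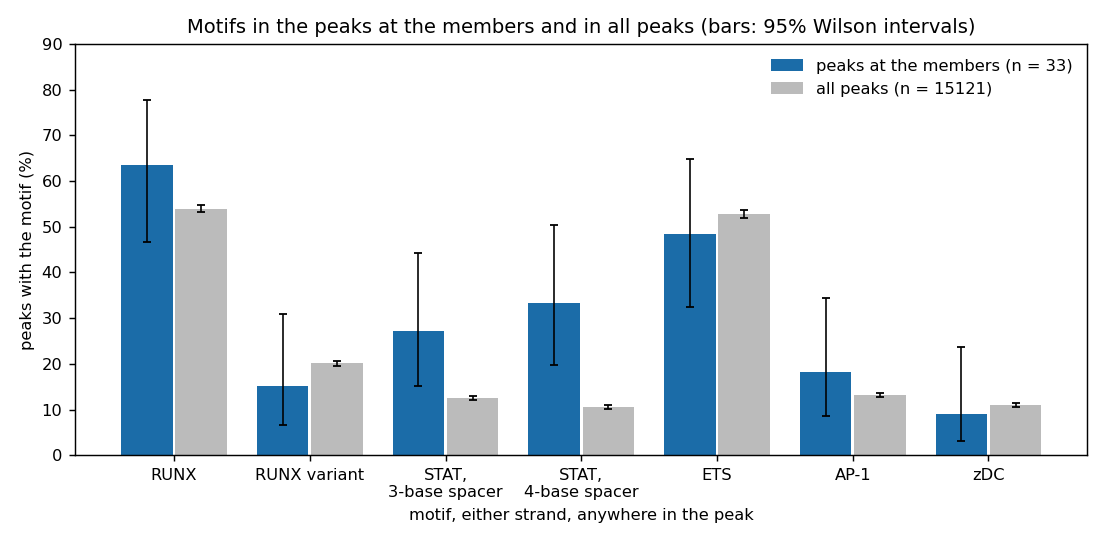
Share of peaks (vertical axis, %) that held each motif on either strand, for the 33 peaks at the 9 genes (blue) and all 15121 peaks (grey), with 95% Wilson intervals as error bars. The blue bars of the STAT palindromes, at 27.3% and 33.3%, stand above the grey ones, at 12.5% and 10.6%, while the intervals of the other blue bars contain the grey share.

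Other motifs were found at shares near those of the list. GGAAGT, the ETS core bound by PU.1 and its relatives, was in 16 peaks, or 48.5%, against 52.8% of all peaks. TGANTCA, the AP-1 site, was in 6 peaks, or 18.2%, against 13.2%. TGACGT, which the study assigns to the DC factor zDC (Zbtb46), was in 3 peaks, or 9.09%, against 11.0%, and the peak at the start of Stat3 held 2 of these copies. The GC content had a median of 52.6%, from 41.0% to 70.8%, against a median of 50.7% in the list.

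In RefSeq promoter sequences on GRCm38.p6, which run from just before to just after a start, the same letters were searched without regard to peaks. The 9 genes had 12 promoters among 32851. TGTGGT was in 3 of the 12, at Stat2, Stat5a and Stat6, and in 16.8% of all promoters. TTCNNNGAA was in 2, with 2 copies at Cish and 1 at Socs3, and in 8.30% of all. The palindrome with 4 spacer bases was in 1, at Stat2, and in 6.95% of all. Stat2 and Stat5a were thus the genes with both TGTGGT in such a promoter and a peak within 1 kb of a TSS, while the promoters of Cish and Socs3, with their STAT palindromes, had no peak within 1 kb.

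The rest of the pathway was described from a list of 34 genes, also chosen with earlier results of these data known. Of these, 32 had a peak within 50 kb, or 94.1%, beside the 62.6% of protein-coding genes. Of the 34, 26 had 3 or more, 20 had one in the body and 18 had one within 1 kb of an own TSS. Over all protein-coding genes the shares for these 3 measures were 29.7%, 23.2% and 24.9%. Their median was 3.5 peaks, and none of their 141 distinct peaks lay in a window of the 9 genes. All 4 kinases had peaks, with 8 at Tyk2, 7 at Jak2 and 2 each at Jak1 and Jak3. The 5 other SOCS genes had fewer, with 3 peaks at Socs5 and Socs7, 2 at Socs2 and Socs4 and none at Socs6. All 4 PIAS genes, which encode inhibitors of DNA-bound STATs, and all 4 phosphatase genes had at least 1.

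Receptor genes had the most peaks. Of 17 receptor genes 16 had a peak, with Csf2rb, the common chain of the GM-CSF receptor, as the exception. Ifnar1, Ifngr2 and Il12rb1, which encode chains of the interferon and IL-12 receptors, had 10 each, of which Ifnar1 and Ifngr2, as neighbors, shared 5. Such sharing was frequent, with 6 peaks in common between Il10rb and Ifnar2 and 8 between Il4ra and Il21r. The highest score among the peaks of the 34 genes, 153.34, belonged to a peak in intron 1 of Il6ra at chr3:89714996-89715680, 1746 bp from its start, which ranked 27. Il6ra encodes the IL-6 receptor, whose signal runs through Stat3, the gene with the strongest peak among the 9. A link between these peaks was not tested.

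**Figure D5:**
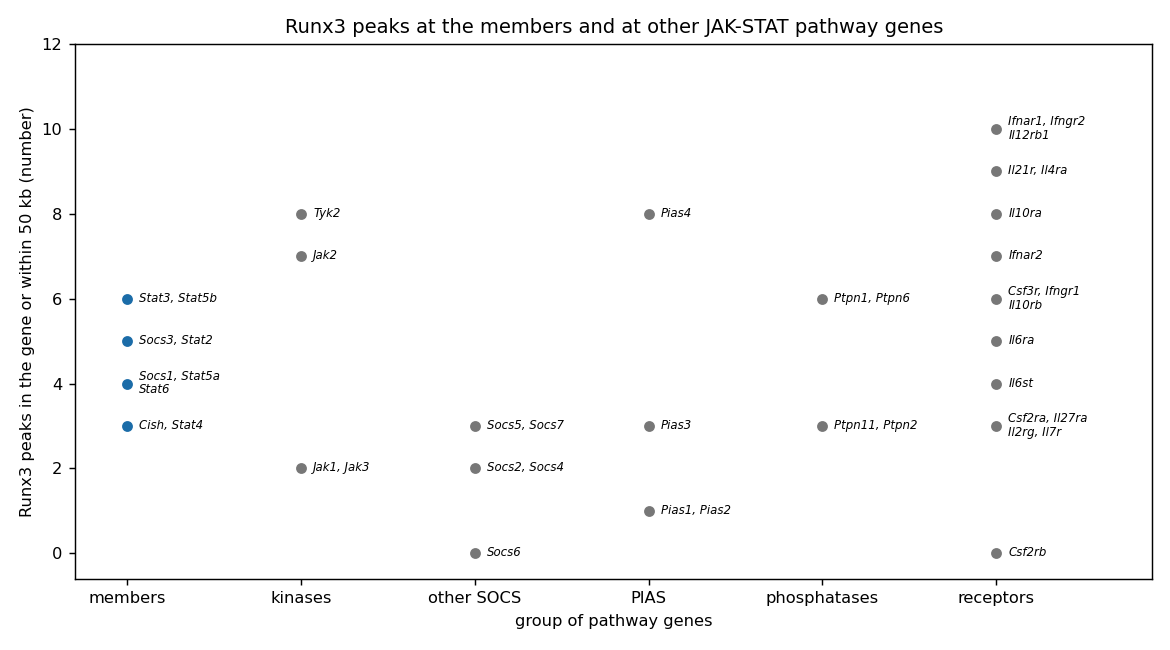
Number of Runx3 peaks in the gene or within 50 kb (vertical axis) for the 9 genes (blue) and for 34 other genes of the pathway by group (grey), with 1 point for each number reached and the genes named beside it. The 9 genes had 3 to 6 peaks, receptor genes reached 10, and Socs6 and Csf2rb had none.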

How the data were processed

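Per the labels and the study's methods, DNA fragments of about 300 bp were sequenced as reads of 50 bp, from sorted CD11c-enriched DC. The authors aligned reads uniquely to mm9 with bowtie and called peaks with MACS2 on the pooled samples. CASAVA 1.8 is named in the submitters' processing notes. Other versions, the threshold and the treatment of duplicate reads are not given in the sources used here. The deposited list holds the start and end coordinates of each peak and a score from MACS2, whose unit is not stated. The study gives the totals of uniquely aligned reads for Runx3 and for the control. Read depth per replicate was not analysed here. A gene without a peak is one where none was called at the pooled depth.

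Starts were moved to count from 1, and peaks were placed by their centre. Genes were those of GENCODE M1 outside the mitochondrial chromosome (37273 genes, 22367 protein-coding). Introns were numbered in the longest transcript. Bases came from NCBIM37 and promoters from RefSeq on GRCm38.p6. Shares have Wilson 95% intervals. No statistical test was made, since the list is 1 call. The 9 genes, the pathway list, the motifs and the alternatives were chosen with earlier results of these data known. Named were all 9 genes with their strongest, nearest and promoter peaks, neighbors that a peak touched, and of the pathway list the 3 genes with the most peaks and those with none. The kinases, the SOCS genes and Il6ra were named beyond this rule after their values were seen, and peaks near some genes are described without naming them. The steps were tested on simulated data. Scripts ran on Python 3.11.15 with pandas 2.3.3, numpy 2.4.6 and scipy 1.17.1, and figures were drawn with matplotlib 3.10.9.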

Additional observations from a re-analysis of the deposited data

How the results depend on the processing

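The 6 main results were recomputed under alternatives, and of 36 values 25 stayed within 1.5 times a count or within the interval of a share or median, and 11 moved. With the gene body alone, 5 of the 9 genes had a peak, 8 distinct peaks remained and 23.2% of protein-coding genes had one. Within 10 kb there were 17 distinct peaks at 8 genes, without Cish, and 43.4% of protein-coding genes had one. With scores at or above the list median there were 18 peaks at 9 genes and 47.3% of protein-coding genes, and at or above the upper quartile 11 peaks at 7 genes, without Stat6 and Socs1, and 31.0% of protein-coding genes. Counting a peak only for the gene of its nearest protein-coding TSS gave 18 peaks, at all 9 genes, and 35.6% of protein-coding genes. The share with TGTGGT was 22.6% in the downstream windows, and the share with a STAT palindrome was 54.5% when either spacing counted, an alternative chosen after seeing the data. The median score was 10.3 within 10 kb and 11.1 for peaks nearest to the 9 genes, both below the list median of 12.1.

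No paired analysis was possible because the list is 1 call on pooled samples, and for the same reason no replicate could be left out. The agreement of the 2 Runx3 samples at any peak is unknown here. Weak calls are the least certain, and 13 of the 33 peaks had a score under 10.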
